A study of Mus musculus with 38 samples.

Results

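Benign hyperplastic lesions (BHL) of the mouse thyroid that arose without the BRAFV600E oncoprotein were compared with asymptomatic thyroids (AT) of mice that also lacked it. By the tissue and BRAF labels, 9 of the 38 arrayed mice belonged to this comparison, 4 with BHL and 5 with AT, and no measured value was used to choose them. The mice came from an FVB/N colony in which a human BRAFV600E cDNA with an HA tag was placed under the bovine thyroglobulin promoter, which is active in thyroid follicular cells. BRAF(-) means that no transgene RNA was found in the thyroid. By the study's methods these mice were genotyped as non-transgenic, with the exception of a BHL mouse older than 12 months, which carried the transgene DNA without its RNA. The labels do not mark that mouse. BHL 2 is the sole BRAF(-) mouse of that age by the labels, but the study's own age range for hyperplastic lesions ends earlier, so the match is likely and not certain. AT 1 was a male of 10 months, AT 2 a male of 4 months, AT 3 a female of 11 months, and AT 4 and AT 5 were females of 12 months. BHL 1 was a male of 6 months, BHL 2 a female of 24 months, BHL 3 a female of 12 months and BHL 4 a female of 11 months. The labels name no treatment. BRAF(+) mice of the same colony, 5 with AT and 4 with BHL, were fitted together with them, which gave 18 non-malignant mice, and are described here where the 2 lesions are set side by side. The BRAF(+) AT mice were females of 7, 10, 11 and 11 months and a male of 10 months, and the BRAF(+) BHL mice were females of 10, 11 and 11 months and a male of 4 months. All of them expressed the transgene RNA. The study names founder lines tg1, tg2 and tg3, which differ in transgene protein level and which the labels do not give. By its age table all BRAF(+) BHL mice were of tg3, and the BRAF(+) AT mice of tg2 and tg3. The BRAF(-) BHL mice came from tg1, tg2 and tg3, and the BRAF(-) AT mice from tg2 and tg3. Line could not be entered in the fit and is not separated from BRAF status.

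The thyroid is built of follicles, whose epithelial cells take up iodide, couple it to thyroglobulin and release thyroid hormone under control of thyrotropin. Hyperplasia is an increase in the number of follicular cells without malignant change, and in rodents it appears with age or with prolonged thyrotropin stimulation. Parathyroid glands, thymus remnants, skeletal muscle, trachea and brown fat lie against the thyroid, so a whole-gland extract can carry RNA of each of them. RNA came from one part of each gland, with fragments of both lobes, and the histological diagnosis came from the other part, so the lesion seen under the microscope was not itself the piece arrayed. In such bulk samples a smaller number of cells of a type and less RNA per cell cannot be told apart.

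Each array measured 35556 probe sets on the log2 scale after robust multi-array averaging (RMA). A value printed for a mouse is a log2 signal, and a difference is BHL minus AT on the log2 scale, adjusted for sex. Of the probe sets, 21789 carried 1 gene symbol, which named 19938 genes, 1621 carried several and 12146 were not listed in the annotation used. Array medians lay between 6.00 and 6.15. The groups were not separated as wholes: Pearson correlations over all probe sets were 0.967 to 0.987 among the AT arrays, 0.969 to 0.983 among the BHL arrays and 0.961 to 0.988 between the groups, and all 4 BHL mice had an AT mouse as their closest array. The precision of each value is limited by the number of arrays in a group.

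Of 4388 probe sets that varied enough to be tested, limma called 0 different between BHL and AT of BRAF(-) mice at an adjusted p under 0.05, which is 0% of those tested. The smallest adjusted p was 0.999. At an unadjusted p under 0.05 there were 123 probe sets, 94 higher in BHL, which is 2.14% of those tested, and 29 lower, which is 0.661%. An unmoderated linear model also called 0, with 104 at the unadjusted threshold, limma with robust variances that follow the intensity called 0, with 107, and array weights gave 0, with 156. Of the 4388 tested, 1736 had a single gene symbol. Among the 123, 28 had a single symbol, 27 of them higher in BHL, and 79 were not listed in the annotation.

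The absence of calls came with wide intervals. The median standard error of a difference was 0.34 and the median size of a difference was 0.20 on the log2 scale. The 95% interval of the difference lay inside a 2-fold change in either direction for 2599 probe sets, 59.2% of those tested, and inside a 4-fold change for 4285, or 97.7%. For the remaining probe sets a change of more than 2-fold in at least 1 direction lies inside the interval. Estimates beyond 2-fold were made for 65 probe sets, 56 higher and 9 lower in BHL. The same fit, with nearly the same median standard error of 0.34, called 275 probe sets between BHL and AT of the BRAF(+) mice, which is 6.27% of those tested, 150 higher and 125 lower. The 2 comparisons share no mice. Probe sets were chosen for testing by their variation over all arrayed mice, most of them BRAF(+), so both shares depend on that choice. Without this filter 0 of 35556 probe sets were called in BRAF(-) mice and 244 in BRAF(+) mice. With the filter set on the 18 non-malignant mice the counts were 0 and 230 of 4810.

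**Figure D1:**
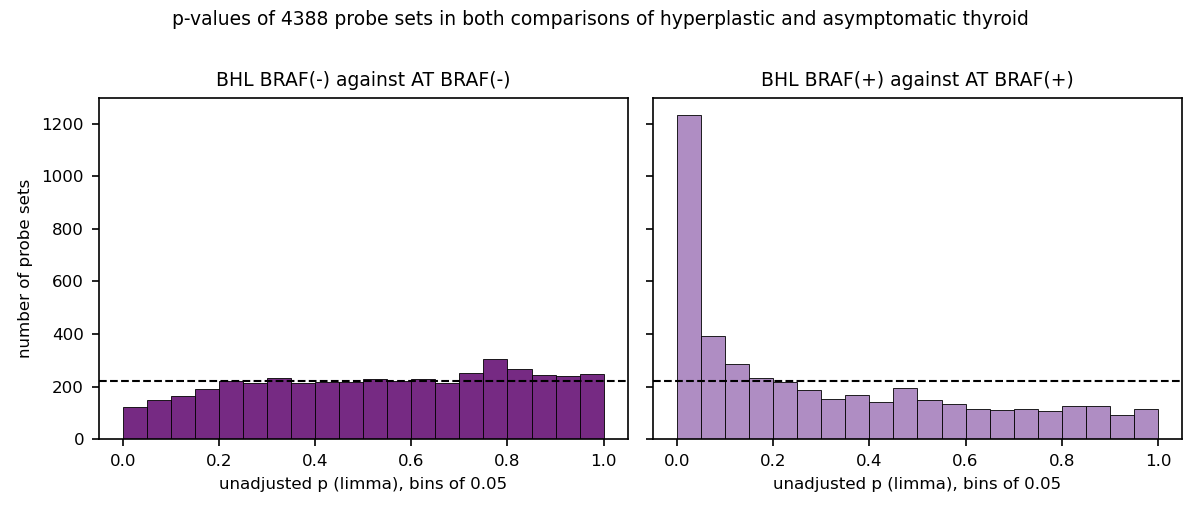
Unadjusted limma p-values of the 4388 tested probe sets, in bins of 0.05 on the x axis with the number of probe sets on the y axis, for BHL against AT in BRAF(-) mice and in BRAF(+) mice. The dashed line marks 219.4 probe sets a bin, an even spread. In BRAF(-) mice the lowest bin holds 123 probe sets and lies below the line, and in BRAF(+) mice it holds 1235.

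Genes that define the thyroid follicular cell were at overlapping levels in both groups. Tg, which encodes thyroglobulin, was the brightest of them, at 13.72, 13.71, 13.63, 13.74 and 13.72 in AT 1 to 5 and at 13.68, 13.71, 13.68 and 13.62 in BHL 1 to 4. Pax8, a transcription factor of the follicular lineage, was at 11.51 to 11.77 in AT and 11.13 to 11.80 in BHL, Nkx2-1 at 9.38 to 10.11 and 9.28 to 9.82, and Foxe1 at 7.93 to 8.89 and 7.82 to 8.70, all with overlapping groups. All 9 extracts thus carried thyroid RNA at a high level, as labelled.

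Slc5a5, the sodium-iodide symporter that brings iodide into the cell, was at 11.74, 11.58, 11.12, 9.99 and 10.76 in AT 1 to 5. It was at 11.59, 11.20, 10.72 and 10.54 in BHL 1 to 4, a difference of 0.15 with a 95% interval of -0.58 to 0.88. The groups overlapped over nearly their whole range. Tshr, the thyrotropin receptor, was at 10.28, 10.62, 9.76, 10.31 and 10.31 in AT and at 10.01, 9.97, 10.12 and 9.18 in BHL. Its difference was -0.36, with an interval of -0.999 to 0.27, and BHL 4 alone lay below every AT mouse. Dio1, the deiodinase that converts thyroxine to its active form, was at 10.90 to 11.62 in AT and 10.65 to 11.49 in BHL. Of the 18 measured genes of thyroid hormone synthesis, 8 passed the filter on flat probe sets and 0 passed the test in either direction, adjusted or not. Their median difference was -0.04, beside -0.01 over all genes. The potassium channel subunit Kcne2, which supports iodide uptake, was the single gene of this list whose groups did not overlap. Its signal was at 4.45 to 4.63 in AT and 4.26 to 4.40 in BHL, a difference of -0.17. No test was made of it because its level was too flat. Over all genes, 199 of 19938, or 0.998%, likewise lay lower in all BHL mice.

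The signalling routes that act on the follicular cell gave medians just as small. The 14 measured genes of thyrotropin receptor and cyclic AMP signalling had a median difference of 0.00. Prkar2b, a regulatory subunit of the cAMP-dependent kinase, had the widest estimate among them, 0.53 with a standard error of 0.34. The 22 growth factors and receptors had a median of -0.06, with Igfbp3, which binds insulin-like growth factors, at -0.32 and Tgfb1 at 0.31. The 12 immediate early genes, which respond to growth signals within the hour, had a median of -0.03, and Myc stood at 0.33. None of the members of these 3 lists passed the test, adjusted or unadjusted.

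Among the named genes past the unadjusted threshold, the pair with the largest differences were transcripts of antibody-producing cells. Jchain, the joining chain of secreted immunoglobulin, was at 5.77, 4.27, 6.29, 5.97 and 5.58 in AT 1 to 5, a mean of 5.58 ± 0.78 (SD, n = 5). In BHL 1 to 4 it was at 4.54, 8.44, 8.94 and 9.51, a mean of 7.86 ± 2.26 (SD, n = 4). The 3 female BHL mice lay more than 2 log2 units above the highest AT mouse, while the male, BHL 1, lay within the AT range. The difference was 2.19 with a 95% interval of 0.31 to 4.07, or 4.57-fold, and did not pass the adjusted test (limma, adjusted p = 0.999). Without BHL 1 the estimate was 3.56, in females alone 3.02 and without BHL 4 1.70, and in each of the 26 alternative fits it was above 0 and did not pass, with a smallest adjusted p of 0.195.

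A variable segment of the immunoglobulin kappa chain was next. Igkv8-30 was at 3.41, 3.16, 3.54, 3.20 and 3.92 in AT and at 3.32, 5.37, 5.11 and 6.27 in BHL, again with BHL 1 inside the AT range. Igkv5-43 was at 3.38, 3.35, 3.59, 2.94 and 3.01 in AT and at 3.83, 4.73, 3.96 and 5.31 in BHL. Its 4 BHL mice lay above all 5 AT mice. The differences were 1.47 (SE 0.60) and 1.13 (SE 0.46), with an adjusted p of 0.999 for both by limma. Such segments are near copies of each other, and a probe set can pick up RNA of a neighbouring segment. Ighm, the constant region of IgM, was at 6.23 to 6.62 in AT and at 6.34, 7.30, 7.13 and 7.14 in BHL, a difference of 0.63 (SE 0.45), and its 3 probe sets gave 0.60 to 1.30. These values were read on different probe sets, so the levels of the genes are not comparable with each other. Over the 14 measured genes of B and plasma cells, each read from its brightest probe set, 13 estimates were above 0 and 1 gene, Jchain, was past the unadjusted threshold. The Ighm probe set at 1.30 was past it as well, but was not the brightest of its gene. Without BHL 4 the median over this list went from 0.30 to 0.02.

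**Figure D2:**
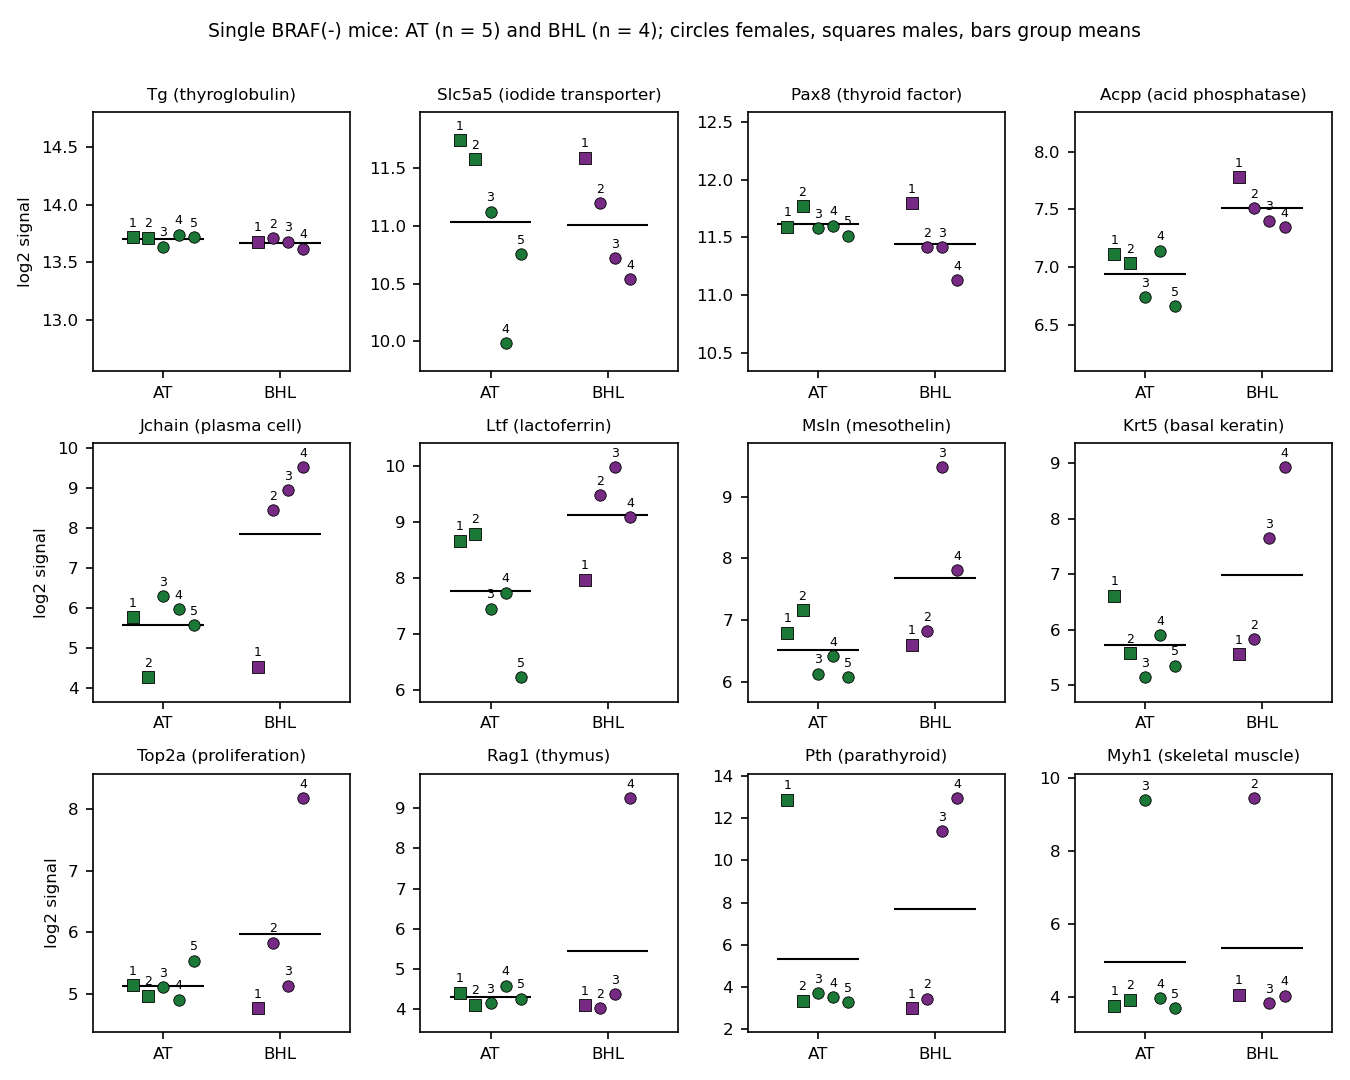
Log2 signal of single genes in each of the 9 BRAF(-) mice, with AT and BHL as separate columns of points, males and females marked apart, and each panel with its own y axis. The horizontal bars are group means. Jchain stands at 8.44 to 9.51 in the 3 female BHL mice and at 4.27 to 6.29 in AT, while Tg is near 13.7 in every mouse.

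The other 7 named genes past the unadjusted threshold and with the largest differences were Ltf, Cyp4a12b, A2ml1, Krt5, Msln, Dmbt1 and Pglyrp1, and the lists that hold Krt5 and Ltf did not shift with them. The squamous epithelium list had 4 estimates above 0 and 6 below, with a median of -0.02, and the neutrophil list 5 and 5, with a median of 0.01. Ltf, which encodes the iron-binding secretory protein lactoferrin, was at 8.67, 8.79, 7.45, 7.74 and 6.22 in AT and at 7.97, 9.48, 9.98 and 9.08 in BHL, a difference of 1.46 (SE 0.67). Dmbt1, a secreted scavenger protein of mucosal surfaces, was at 6.02, 6.62, 5.69, 6.50 and 5.22 in AT and at 6.10, 6.62, 8.06 and 7.28 in BHL, a difference of 1.04 (SE 0.38). Pglyrp1, which binds bacterial peptidoglycan, was at 6.17 to 6.98 in AT and at 6.51, 7.03, 8.65 and 7.62 in BHL, a difference of 1.02 (SE 0.43). In all 3 genes BHL 3 had the highest value of the 9 mice.

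Krt5, the keratin of basal epithelial cells, was at 6.61, 5.58, 5.15, 5.90 and 5.36 in AT and at 5.57, 5.83, 7.64 and 8.92 in BHL, a difference of 1.25 (SE 0.59). Msln, the surface protein mesothelin, was at 6.07 to 7.15 in AT and at 6.60, 6.82, 9.47 and 7.81 in BHL, a difference of 1.15 (SE 0.48). Both genes were high in BHL 3 and BHL 4 and within the AT range in BHL 1 and BHL 2. A2ml1, a protease inhibitor of stratified epithelia, was at 5.02 to 7.44 in AT and at 6.14, 7.35, 9.07 and 7.21 in BHL, and Cyp4a12b, a fatty acid hydroxylase, at 3.78 to 6.02 in AT and at 5.10, 5.34, 8.41 and 6.38 in BHL. For both the value above the AT range by a wide step was that of BHL 3. Without BHL 3 the differences of Msln, A2ml1, Cyp4a12b, Dmbt1 and Pglyrp1 were 0.57, 0.69, 0.59, 0.68 and 0.62, and that of Krt5 without BHL 4 was 0.63. None of the 7 passed the adjusted test, and the 123 probe sets past the unadjusted threshold are fewer than the 219.4 that an even spread of p-values would give. No gene with a single symbol that could be named was lower in BHL at that threshold.

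**Figure D3:**
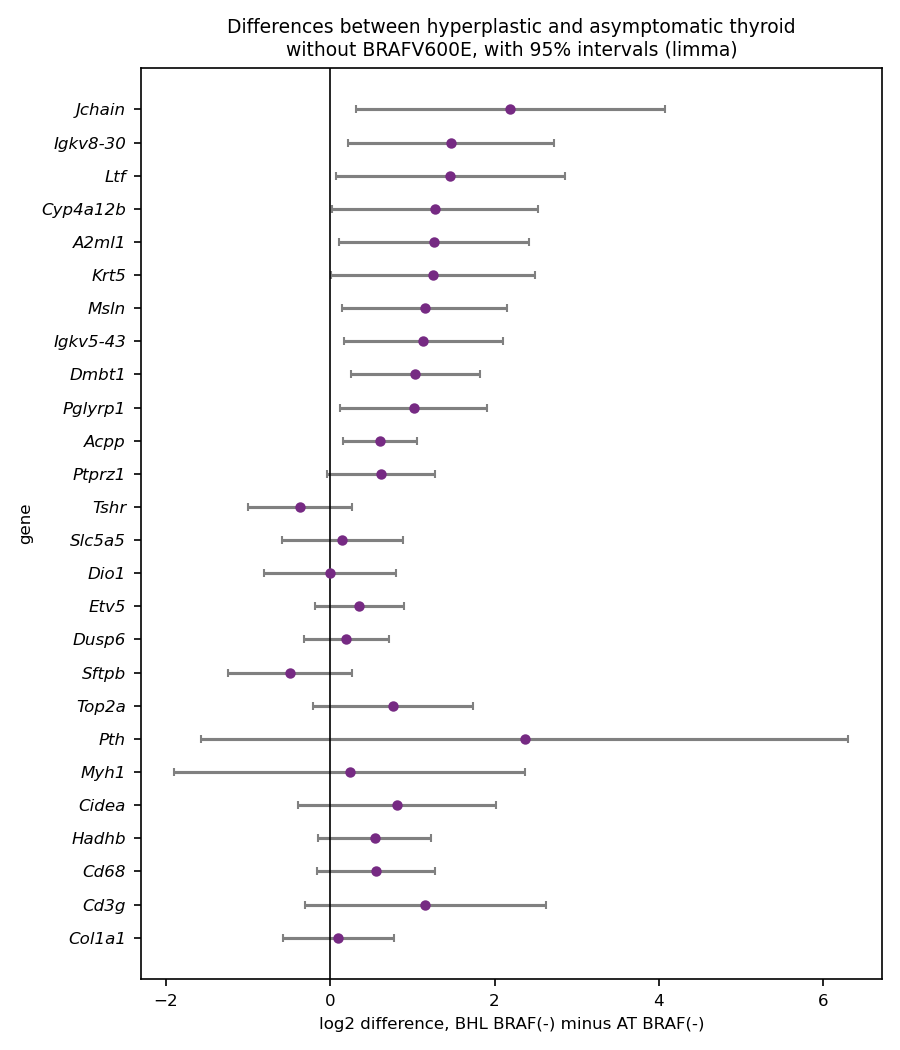
Estimated log2 difference, BHL minus AT, of named genes on the x axis, with points for estimates and bars for 95% intervals from limma, in BRAF(-) mice. The interval of Jchain runs from 0.31 to 4.07 and that of Dio1 from -0.80 to 0.80, and the intervals are not adjusted for the number of probe sets tested.

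Genes whose 4 BHL mice all lay above the 5 AT mice numbered 46 of 19938, which is 0.231%, and genes whose BHL mice all lay below numbered 199, which is 0.998%. Acpp, a prostatic acid phosphatase, was at 7.11, 7.03, 6.74, 7.14 and 6.66 in AT and at 7.78, 7.51, 7.40 and 7.34 in BHL. Its mean was 6.94 ± 0.22 (SD, n = 5) in AT and 7.51 ± 0.19 (SD, n = 4) in BHL, a difference of 0.61 (SE 0.22) that did not pass the adjusted test. Over the 26 alternative fits its difference lay between 0.52 and 0.69. Mertk, a receptor for the uptake of dying cells, was at 7.82 to 8.37 in AT and 8.40 to 8.80 in BHL, and Lig1, a DNA ligase of replication, at 6.07 to 6.48 and 6.53 to 7.28. Ptprz1, a receptor phosphatase, was at 4.01 to 4.29 in AT and at 4.37, 4.35, 5.33 and 4.94 in BHL. Ncapg, a condensin subunit used in mitosis, was at 3.80 to 4.03 in AT and at 4.11, 4.35, 4.32 and 5.85 in BHL, so that its mean was set by BHL 4.

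Among genes that could be named and lay lower in all BHL mice, the 6 with the largest differences had estimates from -0.50 to -0.41. Their BRAF(-) signals lay between 2.86 and 6.40. Sftpb, a surfactant protein of lung epithelium, was at 6.40, 6.30, 6.29, 6.30 and 6.05 in AT and at 5.73, 5.65, 6.05 and 5.85 in BHL, a difference of -0.49 (SE 0.36). The lowest AT mouse and the highest BHL mouse differed only in the third decimal. In BRAF(+) mice the same probe set stood at 10.2 to 12.9. The other 5 were Stmn4, a stathmin of neurons, at -0.50, Tmem92 at -0.49, Cks1brt at -0.43, Dnmt3l, a cofactor of DNA methylation in germ cells, at -0.42 and Spata25 at -0.41. All BRAF(-) signals of these 5 were between 2.86 and 6.09. They had been set aside as flat and were not tested.

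Genes of cell division were examined because hyperplasia is a gain of cells. Of the 23 measured genes of the proliferation list 22 had an estimate above 0, with a median of 0.38, and 0 passed the test, adjusted or unadjusted. Top2a, a topoisomerase of dividing cells, was at 5.13, 4.97, 5.10, 4.90 and 5.54 in AT and at 4.76, 5.83, 5.13 and 8.18 in BHL. Ccna2, a cyclin of S phase, was at 5.13 to 6.25 in AT and at 5.11, 6.23, 5.72 and 8.53 in BHL. In both genes the high value belonged to BHL 4, and the other 3 BHL mice were close to the AT range. A list score, the mean over the members of each log2 signal less that gene's mean in the 18 non-malignant mice, gave 1.40 in BHL 4 and at most 0.00 in every other BRAF(-) mouse. Without BHL 4 the median over the list was 0.01.

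BHL 4 also carried transcripts of developing T cells. Rag1, the recombinase that assembles antigen receptors, was at 4.11 to 4.58 in AT, at 4.10, 4.03 and 4.38 in BHL 1 to 3 and at 9.25 in BHL 4. Dntt, which adds nucleotides at the receptor joints, was at 4.11 to 4.40 in AT, at 4.10 to 4.12 in the other BHL mice and at 9.07 in BHL 4. Themis and Cd8b1, both of thymocytes, stood at 9.74 and 10.19 in this mouse and at no more than 4.32 and 5.85 in the rest. The thymus list scored 2.91 in BHL 4 and -0.28 to -0.10 in the other 8 mice, and the T cell list 2.18 against -0.51 to -0.11, with Cd3g, a chain of the T cell receptor complex, at 10.58. With parathyroid and thymus scores as covariates the proliferation median was 0.07. The thymus score sets BHL 4 apart from the other 8 mice, so this fit does much the same as leaving that mouse out. The part of thymus tissue in the proliferation values was not tested.

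Parathyroid markers marked 3 mice of both groups. Pth, the parathyroid hormone, was at 12.87, 3.37, 3.72, 3.53 and 3.28 in AT 1 to 5 and at 3.01, 3.46, 11.37 and 12.95 in BHL 1 to 4. Chga, chromogranin A of endocrine granules, was at 13.00 in AT 1, 11.37 in BHL 3 and 13.10 in BHL 4, and at 5.92 to 8.51 in the other 6. Casr, the calcium-sensing receptor, was at 9.72 in AT 1 and 10.85 in BHL 4, but at 6.61 in BHL 3 and at 5.79 to 8.32 in the other 6. Pth was thus high in 1 of 5 AT and 2 of 4 BHL mice, and Casr in only 2 of those 3. In another fit the BRAF(-) mice were cut to the females of 11 and 12 months, 2 BHL and 3 AT. All BRAF(+) mice, males included, stayed in that fit and shared the estimate of the spread. Pth, with 8.65 (adjusted p = 1.92e-09), and Chga, with 5.57 (adjusted p = 0.00147), were then past the adjusted threshold in limma. AT 1 was left out there, and both BHL mice carried the signal.

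Skeletal muscle genes marked 1 mouse of each group. Myh1, a fast myosin heavy chain, was at 9.40 in AT 3 and 9.45 in BHL 2, and at 3.71 to 4.07 in the other 7. All 17 measured muscle genes passed the filter, and their list score was 3.79 in AT 3 and 3.57 in BHL 2 against -0.65 to -0.25 elsewhere. The median difference over them was -0.01. Without both mice limma called 0 probe sets, with 143 at the unadjusted threshold.

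Airway-type secretory genes were spread more evenly. Bpifa1, a secreted protein of airway epithelium, was at 11.62, 11.89, 9.91, 11.50 and 10.78 in AT and at 11.32, 10.88, 12.87 and 12.12 in BHL. Reg3g, a mucosal lectin, was at 5.19 to 7.94 in AT and 5.81 to 7.89 in BHL. The scores of this list were highest in BHL 3 (1.62), AT 2 and BHL 4 (0.99) and lowest in AT 3 (-0.50), and 0 of its 8 genes passed the test. BHL 3, high in this list, was also the mouse with the highest Ltf, Dmbt1, Pglyrp1, Msln, A2ml1 and Cyp4a12b, and the part of airway tissue in those values was not tested.

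Brown fat genes had 7 of 7 estimates above 0 and a median of 0.48. Cidea, a lipid droplet protein of brown fat, was at 9.16, 7.72, 8.21, 8.58 and 9.46 in AT and at 10.12, 7.95, 10.10 and 9.13 in BHL. The list score was highest in BHL 1 (1.42), BHL 3 (1.35) and AT 5 (1.29). In females alone the median was -0.04. None of the brown fat genes passed the test, and of the 43 lists described here 0 had all BHL scores above or all below those of AT.

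**Figure D4:**
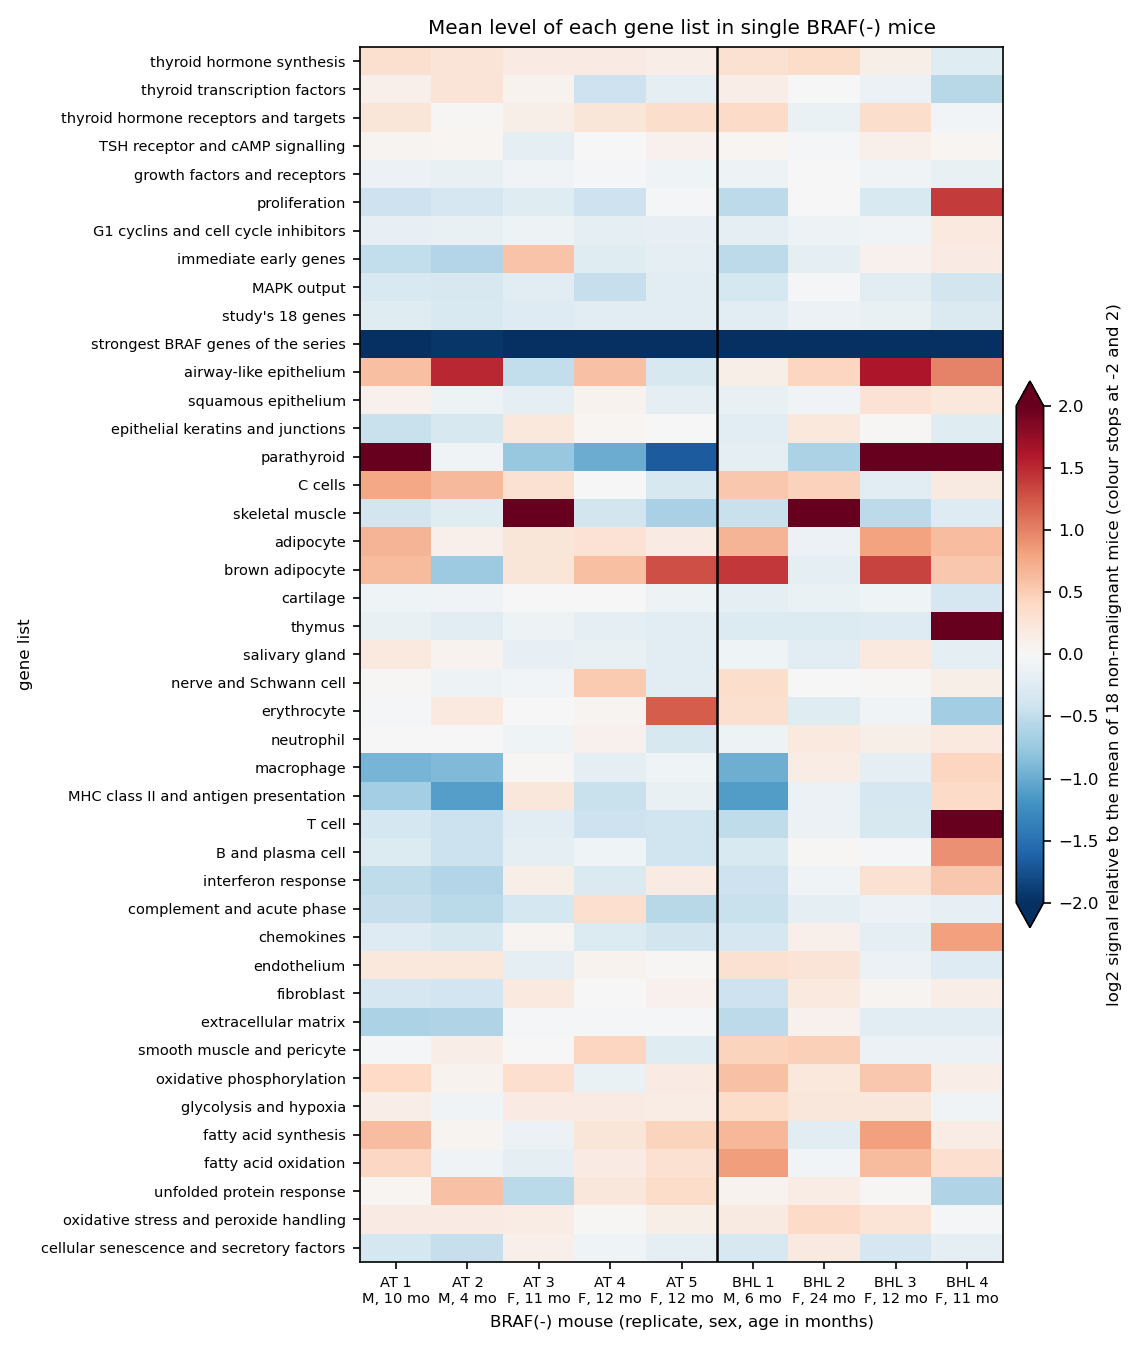
Heat map of list scores, mean log2 signal of the members less each gene's mean over the 18 non-malignant mice, with gene lists as rows and the 9 BRAF(-) mice as columns. Colours stop at the ends of the scale bar. Parathyroid genes stand out in AT 1 (5.20), BHL 3 (3.13) and BHL 4 (5.64), muscle genes in AT 3 (3.79) and BHL 2 (3.57), and thymus genes in BHL 4 (2.91).

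Genes of energy metabolism gave small estimates that nearly all pointed one way. All 20 measured genes of oxidative phosphorylation were estimated higher in BHL, by 0.12 to 0.46 with a median of 0.22, and 0 of them passed the test. Ndufa1, a subunit of respiratory complex I, was at 8.15, 7.32, 8.54, 6.86 and 7.85 in AT and at 8.52, 8.31, 8.01 and 7.70 in BHL. All 10 genes of fatty acid oxidation were estimated higher, with a median of 0.33. Hadhb, a subunit of the mitochondrial trifunctional protein, was at 9.31 to 10.52 in AT and 9.91 to 10.90 in BHL. Genes of one pathway rise and fall together within a mouse, so that 20 estimates of one sign are not 20 separate observations, and the groups overlapped in both list scores. BHL 1 and BHL 3 had the highest scores for fatty acid oxidation, 0.84 and 0.63, as for brown fat, while AT 5, with the next brown fat score, was at 0.30, below AT 1 at 0.42. When the scores of muscle, adipocytes and brown adipocytes entered the fit, the medians were 0.14 for oxidative phosphorylation and 0.23 for fatty acid oxidation.

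The unfolded protein response, through which secretory cells adjust to protein load, had 14 of 14 estimates below 0 and a median of -0.20. Dnajb9, a chaperone of the endoplasmic reticulum, was at 10.31 to 11.46 in AT and at 10.54, 10.60, 10.86 and 10.12 in BHL. The list score of BHL 4, -0.61, was the lowest, that of AT 3 was -0.54, and the other 3 BHL mice lay between 0.03 and 0.14. Without BHL 4 the median was -0.05. None of the 14 genes passed the test.

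Immune and stromal lists overlapped between the groups. Of 15 macrophage genes 13 were estimated higher, with a median of 0.19, and Cd68, a lysosomal protein of macrophages, was at 7.54, 7.39, 8.84, 7.73 and 7.97 in AT and at 7.40, 9.04, 8.51 and 9.33 in BHL. Of 9 interferon-induced genes all were estimated higher, with a median of 0.33, and 0.11 without BHL 4. Ifit3, an antiviral protein, was at 6.30 to 7.80 in AT and 6.72 to 8.65 in BHL. The chemokine Cxcl9, which draws activated T cells, was at 4.98 to 6.09 in AT and at 5.63, 5.70, 6.52 and 8.56 in BHL. Fibroblast and extracellular matrix genes had medians of -0.05 and -0.03, and endothelial genes -0.01. None of the members of these lists passed the test in either direction, adjusted or unadjusted.

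Across all 43 lists 477 distinct genes were measured and 205 passed the filter on flat probe sets. None passed the adjusted test, and 3 of them, Krt5, Ltf and Jchain, were past the unadjusted threshold, all higher, and 0 lower. The medians of 23 lists lay within 0.1 of 0. Those of parathyroid, thymus and T cell genes were above 0.5, at 1.86, 0.97 and 0.64, and that of airway-type genes was 0.50. Without BHL 4 the medians of the thymus and T cell lists were -0.10 and 0.06 and that of the parathyroid list 0.64. The airway median was 0.14 without BHL 3 and 1.03 without BHL 1, and 1.17 in females alone.

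Sex and age ran together in these 9 mice, since the 3 males were 4 to 10 months old and the 6 females 11 to 24 months, so they cannot be told apart. Macrophage scores were -0.98 to -0.89 in the males and -0.20 to 0.43 in the females. Scores of class II antigen presentation were -1.12 to -0.68 in the males and -0.45 to 0.38 in the females. Extracellular matrix scores were -0.63 to -0.53 against -0.22 to 0.09, and fibroblast scores -0.41 to -0.33 against 0.01 to 0.20. In 6 of the 43 lists the 3 males lay below all 6 females and in 2, thyroid transcription factors and C cells, above them, whereas 0 lists separated BHL from AT. These are descriptions with no test. Males made up 2 of 5 AT and 1 of 4 BHL mice, and sex was therefore kept in the fit.

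Genes that mark BRAF activity had medians near 0 between BHL and AT of BRAF(-) mice. The 16 genes of MAPK output, such as Dusp6 and Spry4, feedback inhibitors of ERK signalling, had a median difference of -0.02, beside 0.50 in BRAF(+) mice. Etv5, an ERK-induced transcription factor, was at 7.10, 7.52, 8.01, 7.44 and 8.07 in AT and at 7.47, 8.91, 8.02 and 7.87 in BHL, with its highest value in BHL 2. The study set 18 genes apart as BRAF-dependent, a choice made first on these arrays and then on human thyroid samples. They had a median of 0.03, with estimates from -0.27 for Pdlim4 to 0.25 for Aldh3b1, beside a median of 0.52 in BRAF(+) mice. The study reports both rising and falling genes among them in BRAF(+) mice, so these medians mix the directions. Fn1, the matrix protein fibronectin, was at a mean of 10.04 ± 0.25 (SD, n = 5) in AT and 10.33 ± 0.41 (SD, n = 4) in BHL, a difference of 0.19 with an interval of -0.41 to 0.78. Met, the receptor of hepatocyte growth factor, differed by 0.08, with an interval of -0.39 to 0.56. The 10 genes with the strongest BRAF response in the series, also chosen on these arrays and with Chil1 and Lcn2 among them, scored -2.35 to -1.95 in all 9 mice, with BHL 2, the likely carrier of the silent transgene, at -2.05.

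The question whether hyperplasia differs from asymptomatic thyroid in another way with BRAFV600E was tested as an interaction, the BHL minus AT difference in BRAF(-) mice less that in BRAF(+) mice. limma called 26 probe sets, which is 0.593% of those tested, 15 higher and 11 lower. Of these, 11 had a single gene symbol, 3 had several and 12 were not listed in the annotation. The calls are not separate observations. The unlisted ones hold a block of 9, all lower, whose levels rose and fell together over the mice. The higher ones include immunoglobulin segments, which are near copies of each other. With all 38 mice sharing the spread the count was 0, with 720 at the unadjusted threshold, and with array weights it was 187.

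Immunoglobulin segments had estimates of opposite sign. Igkv8-30, given above for BRAF(-) mice, was at 4.20 to 7.63 in BRAF(+) AT and at 2.78 to 5.14 in BRAF(+) BHL. Its difference was 1.47 in BRAF(-) and -2.39 in BRAF(+) mice, an interaction of 3.86 (adjusted p = 0.0423). For Igkv5-43 the differences were 1.13 and -2.10 (interaction 3.24, adjusted p = 0.0236). Jchain, at 7.15 to 10.26 in BRAF(+) AT and 4.49 to 8.71 in BRAF(+) BHL, had an interaction of 5.10 with an adjusted p of 0.0708 and did not pass. The lowest levels of these transcripts were in BRAF(-) AT and BRAF(+) BHL.

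Dio1, Car4 and Grp had BRAF(-) differences between -0.00 and 0.35. Dio1 was at 11.49, 11.35, 11.04 and 10.65 in BRAF(-) BHL and at 7.80, 8.05, 10.18 and 6.77 in BRAF(+) BHL, with differences from AT of -0.00 and -2.41 (interaction 2.41, adjusted p = 0.0452). Car4, a membrane carbonic anhydrase, was at 9.44, 9.24, 9.05, 8.82 and 8.74 in BRAF(-) AT and 9.43, 9.22, 8.80 and 8.25 in BRAF(-) BHL, and at 5.29 to 7.89 in BRAF(+) BHL. Its interaction was 2.17 (adjusted p = 0.0236). Grp, gastrin-releasing peptide, was at 11.02 to 12.18 in BRAF(-) AT and at 11.32 to 12.72 in BRAF(-) BHL, against 8.71 to 9.76 in BRAF(+) BHL, an interaction of 2.50 (adjusted p = 0.0257).

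The same shape was seen for Hhatl, Alpl, Padi2 and Rtn1. Alpl encodes tissue-nonspecific alkaline phosphatase and Padi2 a peptidylarginine deiminase. The BRAF(-) differences of these 4 were 0.21, 0.29, 0.06 and 0.22 and the BRAF(+) differences -1.99, -1.54, -1.73 and -1.38, with interactions from 1.60 to 2.20 and adjusted p from 0.0343 to 0.0457. In all 4 genes BRAF(+) BHL 3, a male of 4 months, had the highest level of its group.

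Prg4, the lubricant proteoglycan lubricin, ran the other way. The AT mice without BRAFV600E were at 4.99, 5.71, 5.10, 7.36 and 5.88 and the BHL mice without it at 5.80, 6.80, 4.68 and 5.21. In BRAF(+) mice it stood between 4.67 and 5.41 in AT and between 7.99 and 9.03 in BHL with no overlap, a difference of 3.15 beside -0.23 in BRAF(-) mice (interaction -3.38, adjusted p = 0.0114). It held in 29 of 33 alternative fits, and in all 18 that left out a single mouse. A block of 9 probe sets without a gene in the annotation had the same shape, at 3.05 to 4.75 in BRAF(-) BHL, 3.16 to 5.73 in BRAF(-) AT, 3.03 to 5.78 in BRAF(+) AT and 6.33 to 8.66 in BRAF(+) BHL.

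The other 9 named interactions crossed the threshold depending on the mice and the fit, while the estimates moved less. Igkv5-43, Grp and Car4 lost the adjusted threshold in 7 of 18 fits that left out a mouse, Hhatl and Alpl in 12, and Igkv8-30, Dio1, Padi2 and Rtn1 in 13. All kept their sign in each of the 33 alternative fits. The interaction of Alpl lay between 1.66 and 2.01 over them, that of Hhatl between 1.91 and 2.44, that of Dio1 between 1.93 and 2.83 and that of Igkv8-30 between 2.87 and 5.42. The number of probe sets called ranged from 11 to 120 when 1 mouse was left out, 120 without BRAF(+) BHL 3 and 11 without BRAF(+) BHL 4.

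**Figure D5:**
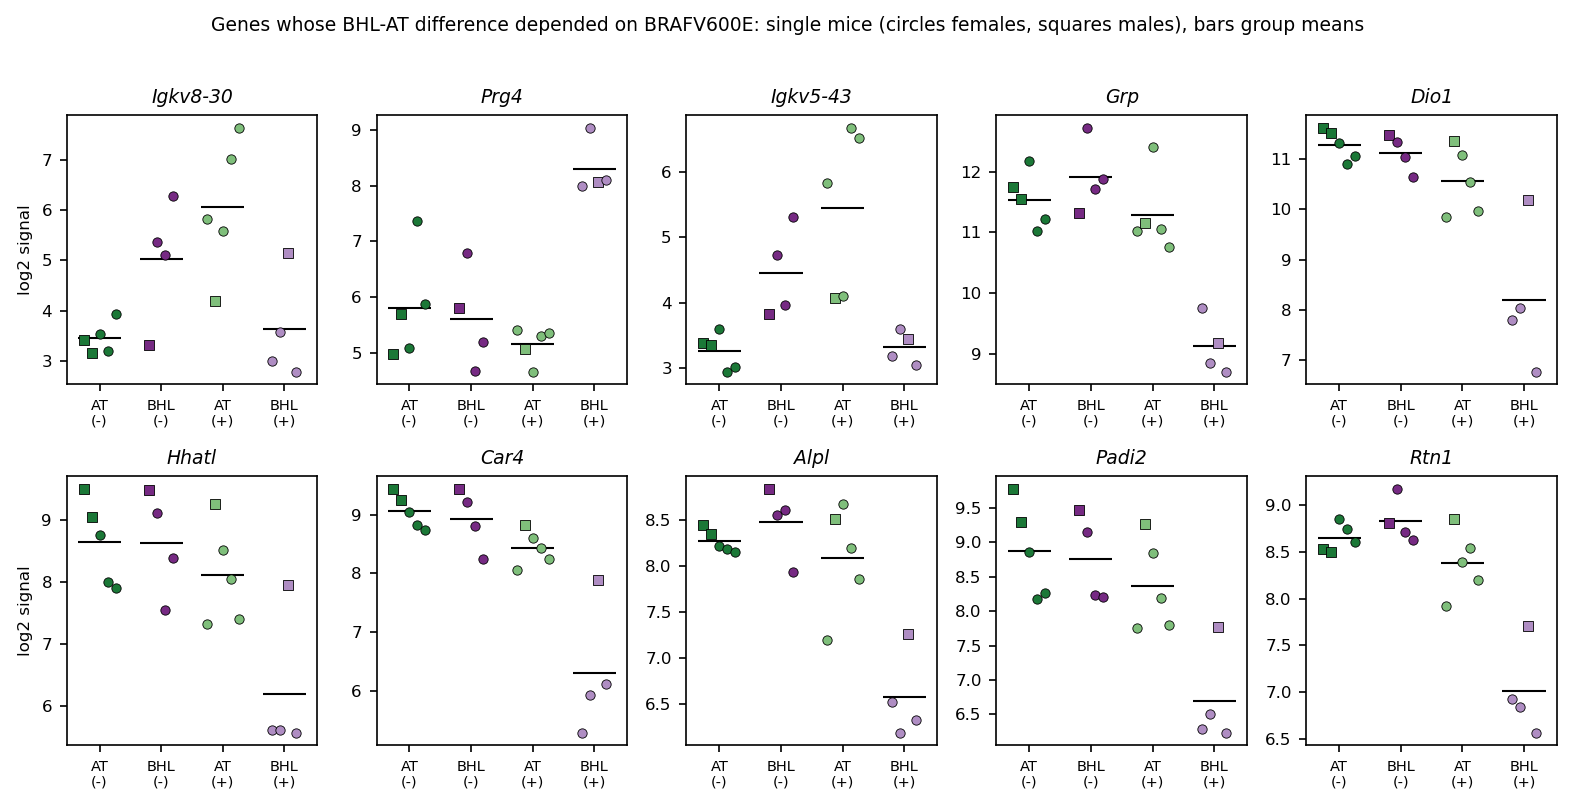
Log2 signal of genes called in the interaction, by group on the x axis (AT and BHL of BRAF(-) mice, AT and BHL of BRAF(+) mice), 1 point a mouse and a bar at each group mean, with a y axis for each panel. Dio1 stands at 10.65 to 11.49 in BRAF(-) BHL and at 6.77 to 10.18 in BRAF(+) BHL, and Prg4 at 4.68 to 6.80 and 7.99 to 9.03.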

How the data were processed

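Total RNA of mouse thyroids was hybridised to Affymetrix Mouse Gene 1.0 ST arrays, 1 array a mouse. The authors normalized the arrays by RMA and deposited log2 values for 35556 probe sets in 38 mice (the RMA implementation and its version are not given in the sources used here). The labels name a labelling kit made for other Affymetrix arrays. No scan date or other batch is given in the sources used here, so none could be tested.

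Groups were taken from the tissue and BRAF labels. The replicates are separate mice. The members and the gene lists were chosen with earlier results of these data known, and no list was tested as a set. As in the study's methods, flat probe sets were removed, those with fewer than 20% of the 38 mice at least 1.5-fold from the median, which left 4388. The study also took out control probe sets. Here the annotation does not identify them, so they stayed in, and unlisted probe sets among the 4388 may include some. A linear model with 4 groups (AT and BHL, BRAF(-) and BRAF(+)) and sex was fitted to the 18 non-malignant mice with limma 3.58.1 in R 4.3.3, with moderated variances and 13 residual degrees of freedom. Benjamini-Hochberg adjustment ran over all probe sets tested, at a threshold of 0.05, and intervals are 95% intervals of single probe sets. A gene with several probe sets was read from the probe set with the highest mean in the 38 mice.

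Named genes were the 10 highest and 10 lowest differences past the adjusted threshold, filled up from those at an unadjusted p under 0.05, up to 10 interactions, the 6 genes in each direction with the largest difference and no overlap between groups, and up to 4 members a list. Predicted genes, small RNAs, olfactory and vomeronasal receptors and sex-linked genes were not named. A few further members were chosen after their values were seen, as the best known of their list. Symbols came from the platform annotation, and probe sets with several symbols or none were left unnamed. Alternatives covered the filter, centring, covariates, variance model, array weights, the mice that share the spread, and leaving out each mouse. The code was tested on simulated data. Tables and plots were made with Python 3.11.15, pandas 2.3.3, numpy 2.4.6 and matplotlib 3.10.9.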

Additional observations from a re-analysis of the deposited data

Results flagged for a closer look

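In 27 named genes and 43 lists, each mouse was set against the others of its group. Of 140 group values, 16 (11.4%) had 1 mouse set apart. Chance gives about 1 in 20 for independent groups that were not picked by their values. Many of these genes were picked by their differences in the same mice, and lists share members, so the shares are not comparable. BHL 4 accounted for 6 of the 16. It was high for Ncapg (5.85, others 4.11 to 4.35), for the thymus list (score 2.91, others -0.28 to -0.25) and for the T cell list (2.18, others -0.51 to -0.11). It was low for Foxe1 (7.82, others 8.58 to 8.70), Tshr (9.18, others 9.97 to 10.12) and the unfolded protein response (-0.61, others 0.03 to 0.14).

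AT 3 accounted for 5. It was high for skeletal muscle (3.79, others -0.65 to -0.25), Tmem92 (3.80, others 3.26 to 3.39) and chemokines (0.061, others -0.37 to -0.25), and low for Tg (13.63, others 13.71 to 13.74) and for thyrotropin receptor and cAMP signalling (-0.18, others 0.01 to 0.09). The other 5 were muscle genes in BHL 2 (3.57, others -0.52 to -0.26), parathyroid genes in AT 1 (5.20, others -1.66 to -0.07), erythrocyte genes in AT 5 (1.21, others -0.02 to 0.19), complement and acute phase genes in AT 4 (0.34, others -0.55 to -0.35), and glycolysis and hypoxia genes in AT 2, which were low (-0.077, others 0.13 to 0.16).

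The BHL minus AT difference itself differed by BRAF status in 10 named genes by the interaction test of limma: Igkv8-30 by 3.86, Igkv5-43 by 3.24, Grp by 2.50, Dio1 by 2.41, Hhatl by 2.20, Car4 by 2.17, Alpl by 1.83, Padi2 by 1.79 and Rtn1 by 1.60 on the log2 scale, and Prg4 by -3.38, with adjusted p from 0.0114 to 0.0457.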

How the results depend on the processing

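The count of 0 probe sets between BHL and AT of BRAF(-) mice held in every alternative except 2. It was 1 with list scores of muscle, adipocytes and brown adipocytes added, a probe set without a gene (log2 difference 1.73). It was 3 when the BRAF(-) mice were cut to the females of 11 and 12 months and all BRAF(+) mice were kept. These were Pth, Chga and a probe set without a gene. Leaving out single mice gave 0 to 0, and at the unadjusted threshold from 79 without BHL 4 to 200 without BHL 1. The 338 refits covered 13 genes named for their BHL minus AT difference, and all kept their sign and side of the threshold. Pth and Chga were not among these 13.

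The count in BRAF(+) mice, 275 of 4388, became 122 without the sex term and 484 in an unmoderated linear model. With array weights it was 891, and with the 3 tissue scores 25. Over the 1736 probe sets tested with 1 gene symbol it was 587. It ran from 35 to 553 when a mouse was left out (35 without BHL 1, 36 without BHL 2, 37 without BHL 4, 50 without AT 2, 81 without AT 4, 176 without AT 3, 469 without AT 1 and 553 without BHL 3 of the BRAF(+) mice). The interaction count, 26 (15 higher), became 10 (0 higher) without the flat filter and 11 (1 higher) with the 3 tissue scores. It was 15 (4 higher) with age as a covariate, 55 (38 higher) in females and 187 (128 higher) with array weights. It was 0 with all 38 mice sharing the spread, where 720 were past the unadjusted threshold. It became 15 over probe sets with 1 gene symbol, 13 with parathyroid and thymus scores and 14 without AT 3 and BHL 2, these 3 chosen after seeing the data, and ran from 11 to 120 when a mouse was left out, moving by over 1.5 times in 13 of 18 such fits. Named interactions stayed past the threshold in 162 refits and lost it in 168. List medians moved by less than the spread between mice in 719 refits and by more in 12. The thymus median became -0.10 without BHL 4. The cause of these shifts was not tested. Array signals carry no counts, and probe sets were not marked as above or below background. No paired analysis was possible because the mouse numbers name animals and are not shared between groups.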

Other observations

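Salivary gland genes gave low signals in both groups. Of 8 measured, 3 were estimated higher in BHL and 5 lower. Dcpp1, a secreted salivary protein, was at 7.36 in AT 1 and 7.91 in BHL 3, and at 5.44 to 6.26 in the other 7 mice.

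Cartilage genes had 10 of 10 estimates below 0, with a median of -0.15, and 0 passed the test. Comp, a cartilage matrix protein, was at 5.20 to 5.37 in AT and 5.09 to 5.22 in BHL. Alas2, the first enzyme of haem synthesis in red cell precursors, was at 7.59, 8.10, 7.66, 7.69 and 9.63 in AT and at 8.40, 7.44, 7.44 and 6.67 in BHL, a difference of -0.58 (SE 0.48). Srxn1, which restores oxidised peroxiredoxins, was at 9.05 in BHL 2, the mouse of 24 months, and at 7.59 to 7.87 in the other 8. Slc26a4, the iodide transporter pendrin, was at 5.60 in BHL 2 and at 4.11 to 4.67 in the rest.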
